A study of Saccharomyces cerevisiae with 20 samples.

Results

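The strain by temperature contrast asked how ribosome occupancy changed from 25°C to 37°C in cdc33-ts4-2 cells beyond the change in CDC33 cells. Its members were the 5248 of 5778 genes of the ribosome profiling table whose mean normalised footprint count over the samples, as computed by the authors, was at least 20. DON1 (mean 20.1) lay just inside this limit and SPO11 (mean 19.97) just outside it. Both strains of Saccharomyces cerevisiae descend from BY4741, whose genotype is MATa his3Δ1 leu2Δ0 met15Δ0 ura3Δ0. They carried either the wild-type CDC33 gene or the temperature-sensitive cdc33-ts4-2 allele, which encodes eIF4E with the substitutions E73K and G179D, each linked to the same HIS3 marker. Cultures grown in rich medium at 25°C were split, and for the last 1 h before cycloheximide treatment one portion stayed at that temperature and the other was held at 37°C. Ribosome-protected fragments were sequenced from 8 samples, 2 for each strain and temperature, and poly(A)-selected mRNA by RNA-seq from 12 samples, 3 for each. According to the paper, the fragments lacked the usual length distribution and reading-frame enrichment, possibly because digestion was incomplete, but rarely mapped to introns or 3′ UTRs. It also reports strongly reduced translation and few remaining polysomes in the mutant at 37°C. Whether every fragment came from a ribosome was not tested here. The study calls the replicates biological, and the tests measure the spread between them. That spread is 0 where a gene is listed at 0 in both replicates of a group.

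For the coding sequences themselves, the change per gene was deposited only as the authors' own comparison and was not analysed here. The values that could be compared sample by sample were the densities of footprints in the leader (5′ UTR), the 3′ UTR and the introns of each gene, each divided by the density in the coding sequence of the same gene, and the average coverage along transcripts. A density of 1 therefore means as many footprints per base as in the coding sequence, and a higher density can come from more footprints in the leader or fewer in the coding sequence, which cannot be told apart. Densities were listed in every sample for the leaders of 1215 members (23.2% of all members), the 3′ UTRs of 1205 and the introns of 90. The member with the lowest authors' mean among those with complete leader densities had a mean of 226, so the members with the fewest footprints are not described. Read depth is unknown because no counts per sample were given for these regions. Within each list, values are given as replicate 1 and then replicate 2.

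eIF4E, the product of CDC33, binds the 5′ cap of mRNAs and with the scaffold eIF4G and the helicase eIF4A forms the eIF4F complex, which recruits the small ribosomal subunit before it scans the leader for a start codon. Ribosomes in a leader are often found on upstream open reading frames (uORFs), which often limit translation of the main reading frame. Those in 3′ UTRs and introns are normally rare, because translation ends at the stop codon and introns are removed in the nucleus. GCN4, the transcriptional activator of amino acid synthesis, is the classical case of control by uORFs: its leader carries 4 of them, and ribosomes reach the GCN4 start codon when they pass the inhibitory uORFs.

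The substitutions that define the mutant strain are shown first. The forward primers used to make them lie on chromosome XV in the CDC33 coding exon (minus strand, R64 build, positions 60794 to 60821 for E73K and 60475 to 60502 for G179D). Each is set beside the reference sequence, 5′ to 3′, with the changed codon in capitals.
eIF4E-E73K-F: ccaaactgttgaaAAAttttgggctatc
reference for E73K: ccaaactgttgaaGAAttttgggctatc
eIF4E-G179D-F: ctattgagaattGACggtaaattcaagc
reference for G179D: ctattgagaattGGTggtaaattcaagc
The second set is the 4 uORF starts of GCN4, since the leader of GCN4 moved against most others. They were found in the reference sequence as AUG codons with an in-frame stop inside the listed leader of 726 nt on chromosome V (minus strand). Capitals mark the ATG, and the stretches span positions 140104 to 140133, 140036 to 140065, 139919 to 139948 and 139894 to 139923.
GCN4 uORF1: cattgaaaaATGgcttgctaaaccgattat
GCN4 uORF2: aagagaattATGtgttaaatttattgaaag
GCN4 uORF3: attgctatcATGtacccgtagaattttatt
GCN4 uORF4: ttattcaagATGtttccgtaacggttacct
Their ATGs lie 361, 293, 176 and 151 nt before the GCN4 start codon. The reading frames are 2 or 3 codons long before the stop.

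Relative footprint coverage of cdc33-ts4-2 cells at 37°C was higher in the 3′ UTR and the early part of the coding sequence, and lower in its later part. The difference in the later part had the same sign in RNA-seq. In the deposited profiles each region is divided into 100 bins and coverage at each position is expressed relative to the mean over the gene, averaged over genes. In bins 11 to 100 of the 3′ UTR the coverage was 0.00991 and 0.00964 in CDC33 cells at 25°C, 0.0175 and 0.0211 in CDC33 cells at 37°C, 0.0103 and 0.0106 in the cdc33-ts4-2 samples at 25°C, and 0.0779 and 0.0909 in the cdc33-ts4-2 samples at 37°C. Both cdc33-ts4-2 samples at 37°C were far above the other 6, which lay between 0.00964 and 0.0211. The rise was 8.09-fold in the mutant against 1.97-fold in CDC33 cells. In the first 10 bins after the stop codon the corresponding pairs were 0.0206 and 0.0239, 0.0241 and 0.0342, 0.0233 and 0.0227, and 0.102 and 0.0955, a rise of 4.29-fold against 1.31-fold. The 3′ UTR signal in the mutant at 37°C was thus spread along the region and not only beside the stop codon.

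In the coding sequence, bins 2 to 10 held a coverage of 2.29 and 2.44 in CDC33 cells at 25°C and 2.55 and 2.58 at 37°C, against 2.33 and 2.32 in the cdc33-ts4-2 samples at 25°C and 3.36 and 3.18 at 37°C. This early part rose 1.41-fold in the mutant and 1.08-fold in CDC33 cells. The opposite held further along. In bins 51 to 90 the coverage was 1.29 and 1.21 (CDC33, 25°C), 1.27 and 1.25 (CDC33, 37°C), 1.27 and 1.29 (cdc33-ts4-2, 25°C) and 1.09 and 1.13 (cdc33-ts4-2, 37°C). Both mutant samples at 37°C lay below the other 6. In bins 11 to 50 the difference between the strains' changes was -0.10 on the log2 scale (spread 0.05, exact p = 0.056). It was -0.22 in bins 51 to 90 (spread 0.08, exact p = 0.167) and -0.22 in the last 10 bins (spread 0.13, exact p = 0.167). In RNA-seq the differences over the same windows were 0.02, -0.09 and -0.16. The very first coding bin, which holds the start codon, fell in both strains, from 10.9 and 14.3 to 6.01 and 5.91 in CDC33 cells and from 8.14 and 7.13 to 5.07 and 4.81 in cdc33-ts4-2 cells. The fall was 0.46 smaller in the mutant on the log2 scale (spread 0.31, exact p = 0.389).

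Over these windows and the median densities below, 13 values were compared by an exact permutation test (2-sided) that exchanged the strain labels within each temperature. With 2 samples per group it has 36 arrangements and cannot give a p-value below 0.056. Its null hypothesis is that the strains are alike at both temperatures, so it does not test the difference between their changes alone. Where the strains are alike at the lower temperature, exchanging labels there hardly alters that difference. The p-value then stays high even if both mutant samples at the higher temperature stand apart. A large exact p is therefore not evidence that the strains changed alike. The difference between the strains' changes in log2 coverage was 2.03 in 3′ UTR bins 11 to 100 (exact p = 0.333), 1.71 in the first 10 bins (exact p = 0.222) and 0.38 in coding bins 2 to 10 (exact p = 0.167). Adjusted over the 13 tests, no exact p was below 0.361. The differences can be set against the spread between replicates instead, which was 0.25, 0.39 and 0.09 on the same log2 scale for these windows. This spread is the square root of the summed squared SDs of the 4 groups, each relative to its mean and put on the log2 scale. It is larger than the standard error of the difference, so lying within it is not a test. In RNA-seq from the same strains the corresponding differences were 0.08, -0.11 and 0.14.

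**Figure D1:**
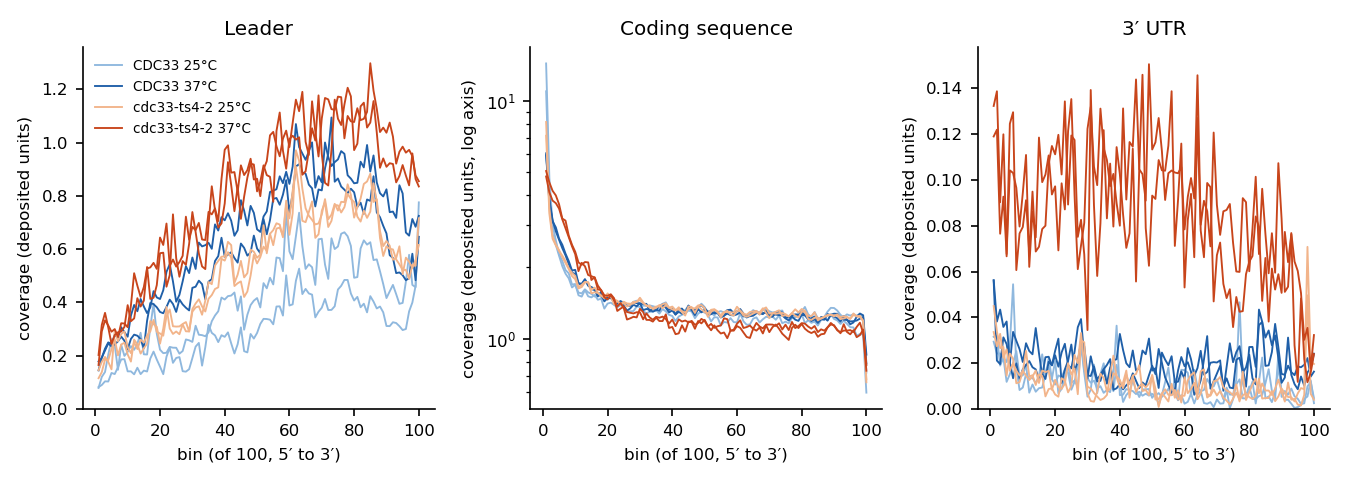
Average footprint coverage (deposited units, relative to the mean over each gene) over 100 bins of the leader, the coding sequence (log axis) and the 3′ UTR, 1 line per library, coloured by strain and temperature. The 2 cdc33-ts4-2 libraries at 37°C lie above all others along the 3′ UTR (0.0779 and 0.0909 over bins 11 to 100) and in early coding bins, and below them in coding bins 51 to 90 (1.09 and 1.13).

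Leader densities rose with temperature in both strains. The median over the 1215 members with complete leader densities was 0.0377 and 0.0508 in CDC33 cells at 25°C, and 0.0771 and 0.100 at 37°C. In the cdc33-ts4-2 samples it was 0.0745 and 0.0672 at 25°C, and 0.189 and 0.182 at 37°C. The mutant kept at 25°C lay above CDC33 cells at 25°C and just below CDC33 cells at 37°C, and the mutant at 37°C was highest. The rise was 2.62-fold in the mutant against 2.01-fold in CDC33 cells, a difference of 0.38 in log2 that was no larger than the spread between replicates (0.42, exact p = 0.611). Coverage over leader bins 51 to 90 also rose in both strains, but less in the mutant. It was 0.400 and 0.565, 0.805 and 0.887, 0.718 and 0.742, and 1.00 and 1.07 in the same order. The rise was 1.42-fold in the mutant against 1.75-fold in CDC33 cells (exact p = 0.5). This difference of -0.30 in log2 was opposite in sign to that of the median density, and within the spread between replicates (0.37). In RNA-seq the median leader density was between 0.35 and 0.68 in all 12 samples.

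**Figure D2:**
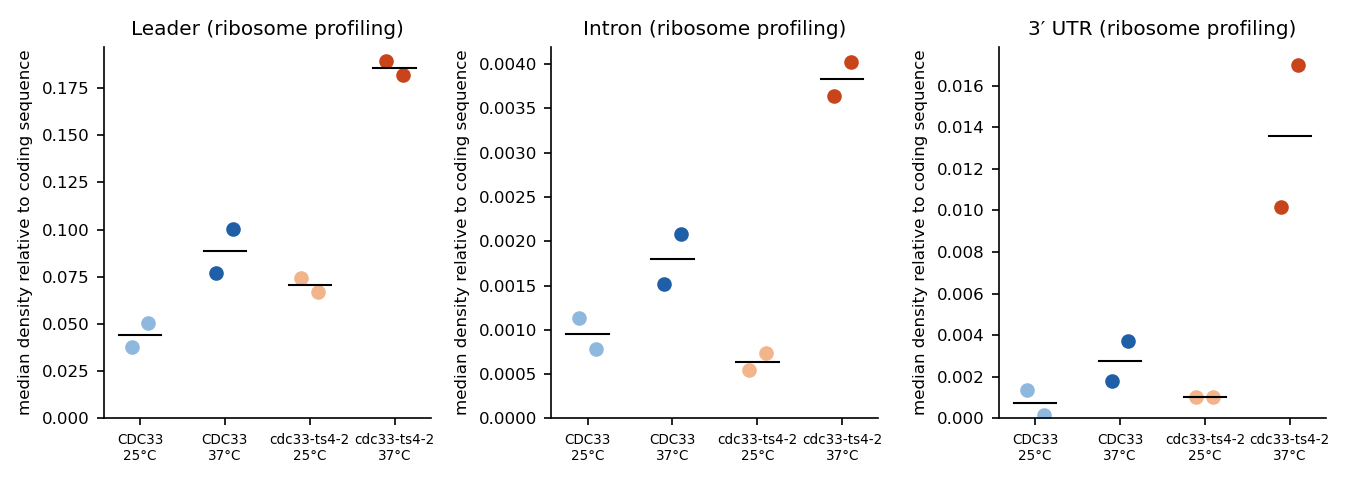
Median density relative to the coding sequence over the members with complete densities, for leaders, introns and 3′ UTRs, with 1 point per ribosome profiling library and a bar at the mean of each pair. For leaders the 2 cdc33-ts4-2 libraries at 37°C (0.189 and 0.182) top a graded series, whereas for introns and 3′ UTRs they stand apart from the other 6.

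Gene by gene, leader densities rose in both strains and very few genes changed differently between them. Changes were tested with limma on log2(density + 0.01) for members whose mean density was at least 0.01, and a gene was called at an adjusted p of at most 0.05. In cdc33-ts4-2 cells 209 of 1076 members rose and 5 fell (19.9% of all genes tested were called), and in CDC33 cells 129 rose and 5 fell (12.4% called). The median change was 0.97 and 0.87, respectively. Folds given for single genes are ratios of mean densities, whereas the p-values belong to the change in log2(density + 0.01), which is smaller for low densities. The members that rose in both strains numbered 65, or 31.1% of those raised in the mutant and 50.4% of those raised in CDC33 cells. For the difference between the strains' changes, 1 member passed, UTP21 (0.0928% called), and 104 did at an unadjusted p under 0.05. The median difference was 0.04, with 559 of the 1076 above 0 and a median standard error of 0.64 per gene. These directions are relative to the coding sequence of each gene: when each library was centred on its median instead, every difference moved by -0.37, and 13 members rose and 33 fell in the mutant against 6 and 10 in CDC33 cells. The counts within a strain also depended on single libraries. In the mutant no member was called without either 25°C replicate or without 37°C replicate 1 (293, 282 and 353 at an unadjusted p under 0.05 in limma), and 79 were without 37°C replicate 2. In CDC33 cells between 1 and 279 were called when any 1 of the 8 libraries was left out.

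Leaders with high densities relative to their coding sequence had, at the median, the larger gain in CDC33 cells. When members were divided into 4 sets of 269 by their mean leader density over the 8 libraries, the set with the highest densities had a median rise of 0.86 in cdc33-ts4-2 cells and of 1.11 in CDC33 cells, a median difference of -0.23. The set with the lowest densities had a median rise of 0.64 in the mutant and 0.24 in CDC33 cells, a median difference of 0.43. Centring moves both values by -0.37, which brings the lowest set near 0. The median of the authors' mean count was 819 in the highest set and 1797 in the lowest. In the highest set the mutant at 25°C was already 0.86 above CDC33 cells at 25°C, and in the lowest set 0.07. RNA-seq gave differences of 0.47 and 0.20 for the highest and lowest sets, so the order was the opposite there. The sets were formed from the libraries they describe and are given without a test.

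**Figure D3:**
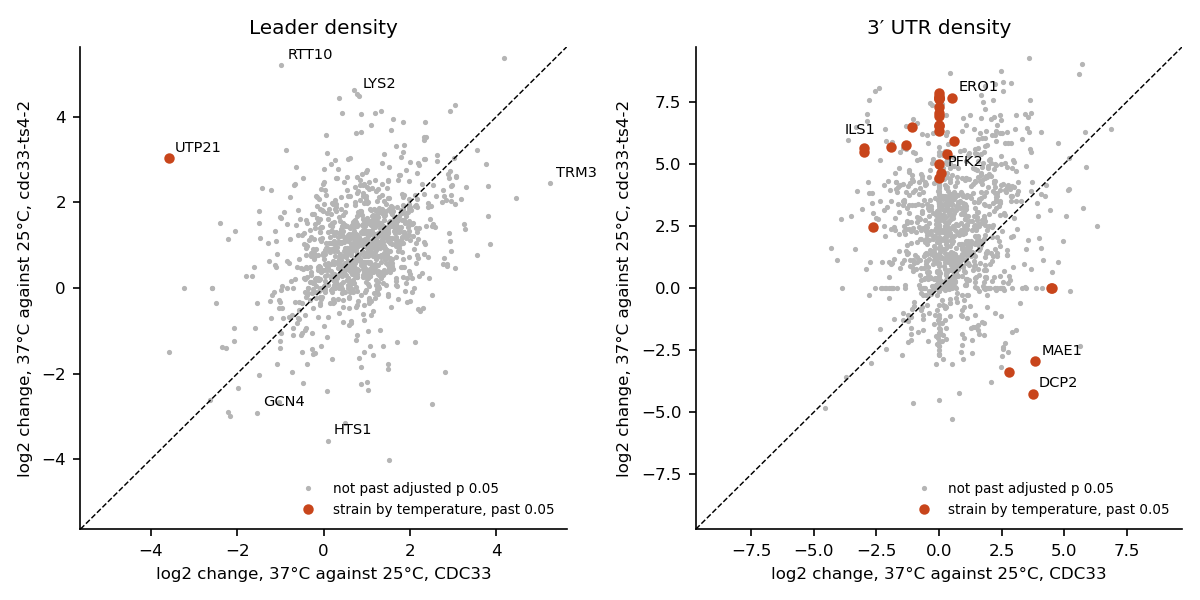
Change in log2 density from 25°C to 37°C in CDC33 cells (x axis) and in cdc33-ts4-2 cells (y axis) for leaders and 3′ UTRs, 1 point per member, with members past an adjusted p of 0.05 for the difference in colour. Leaders scatter about the diagonal, with UTP21 (difference 6.61) the 1 called gene, and 3′ UTRs lie mostly above it (median difference 1.75).

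Of the 9 genes tested with known regulatory uORFs or upstream starts, GCN4 was the 1 whose leader density fell in both strains. Its leader density was 17.9 and 28.5 in CDC33 cells at 25°C, 9.24 and 6.59 in CDC33 cells at 37°C, 5.10 and 3.75 in the cdc33-ts4-2 samples at 25°C and 0.620 and 0.533 in the cdc33-ts4-2 samples at 37°C. The 4 groups did not overlap. At 25°C in CDC33 cells the leader with the uORFs shown above thus held about 23.2 ± 7.47 (SD, n = 2) times as many footprints per base as the GCN4 coding sequence, and in the mutant at 37°C fewer than the coding sequence (0.577 ± 0.0613). The fall was 7.67-fold in the mutant (log2 change -2.91, SE 0.38, limma adjusted p = 0.0104) and 2.93-fold in CDC33 cells (log2 change -1.53, SE 0.38, adjusted p = 0.0497). The fall in the mutant exceeded that in CDC33 cells by 1.37 on the log2 scale (SE 0.54, unadjusted p = 0.0423 by limma), which did not pass after adjustment (adjusted p = 0.505). In RNA-seq the leader density of GCN4 was 0.468 to 0.774 in all samples. The call in the mutant was lost without 25°C replicate 1 (adjusted p = 0.0792), 25°C replicate 2 (0.0544) or 37°C replicate 1 (0.0530), within a range of 1.05e-05 to 0.0792 over all alternatives, and the call in CDC33 cells was lost when any 1 of the 8 libraries was left out. The direction of all 3 values held in all 17 alternatives.

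The other genes with regulatory uORFs showed rising or steady leader densities, except TIF4631 (eIF4G1) in the mutant. Its log2 change there was -0.44 (limma adjusted p = 0.756), and its 37°C replicates differed widely (0.0436 ± 0.0616, SD). For SCH9, a protein kinase downstream of TORC1, the leader density was 0.185 and 0.340 in CDC33 cells at 25°C and 1.03 and 1.18 at 37°C, and 0.735 and 0.776 in the cdc33-ts4-2 samples at 25°C and 1.45 and 1.42 at 37°C. It rose in CDC33 cells (4.20-fold, limma adjusted p = 0.0328), and the mutant at 25°C lay between the CDC33 samples of the 2 temperatures. ALA1, the alanyl-tRNA synthetase whose extended form starts upstream at a near-cognate codon, went from 0.115 and 0.197 to 0.595 and 0.542 in CDC33 cells and from 0.439 and 0.465 to 1.17 and 1.10 in the mutant. It rose in both strains (adjusted p = 0.0371 and 0.0449). GRS1, the glycyl-tRNA synthetase with the same kind of upstream start, went from 0.148 and 0.200 to 0.472 and 0.570 in CDC33 cells (adjusted p = 0.0398) and from 0.476 and 0.477 to 1.01 and 0.984 in the mutant (adjusted p = 0.0558). In both genes the 2 mutant libraries at 25°C lay above the 2 CDC33 libraries at 25°C, as they did in 558 of the 1076 members, and no uORF gene was called for that comparison. LEU4, an enzyme of leucine synthesis, had 0.0965 and 0.137, 0.221 and 0.429, 0.285 and 0.317, and 0.783 and 0.769 in the same order of groups, and its difference between strains was -0.01 (SE 0.57). YAP1 (oxidative stress activator), HOL1 (polyamine transporter), URA1 (pyrimidine synthesis) and TIF4631 (eIF4G1) had differences of -0.38, -0.72, 0.38 and -1.996, none past the threshold. Of the 9 listed uORF genes tested, 1 difference was above 0 and the median was -0.53, against 0.04 for all members, with none called. After centring the medians were -0.90 and -0.33. GCN4, HOL1, SCH9, YAP1, ALA1 and GRS1 belong to the set of leaders with the highest densities. That set had a median difference of -0.23 before centring, with 89 of 269 members above 0, so a low value was not particular to uORF genes.

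**Figure D4:**
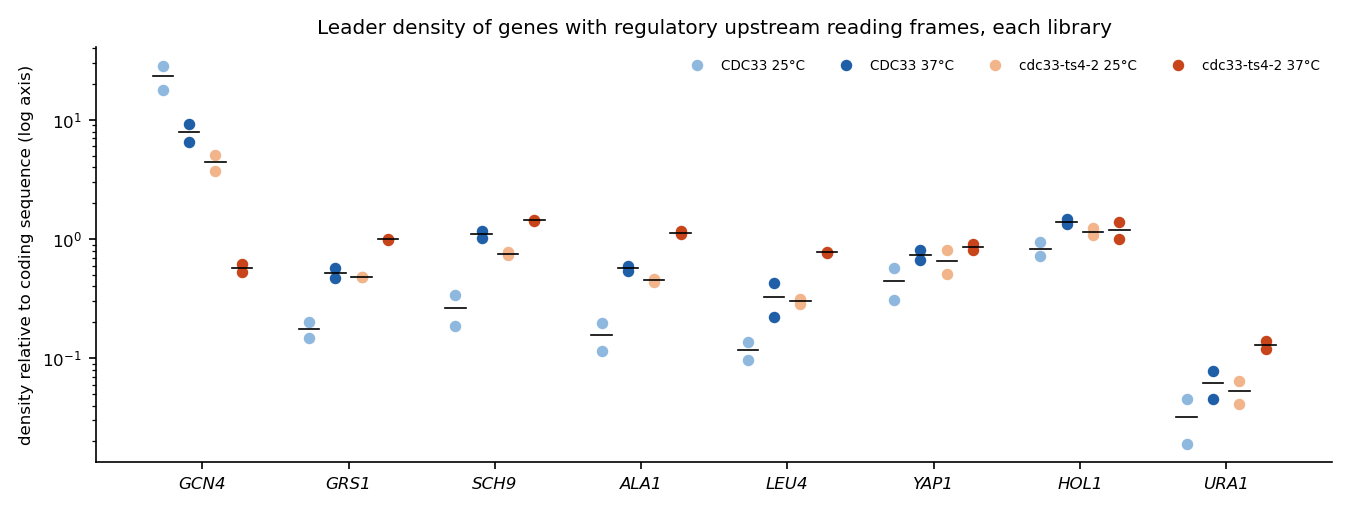
Leader density relative to the coding sequence (log axis) of 8 genes with regulatory uORFs or upstream starts, 1 point per ribosome profiling library, with a bar at the mean of each pair. GCN4 falls from 17.9 and 28.5 in CDC33 cells at 25°C to 0.620 and 0.533 in the cdc33-ts4-2 samples at 37°C, while ALA1, GRS1 and SCH9 are lowest in CDC33 cells at 25°C and highest in the cdc33-ts4-2 samples at 37°C.

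CDC33 itself had leader densities of 0.0174 and 0.0352, 0.0550 and 0.0604, 0.0370 and 0.0253, and 0.0845 and 0.0584 in the same order. The 37°C samples lay above the 25°C samples in both strains. The mutations change codons only, so these values do not check the labels.

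UTP21, which encodes a component of the small-subunit processome that makes 18S rRNA, had leader densities of 0.145 and 0.0826 in CDC33 cells at 25°C, was listed at 0 in both CDC33 samples at 37°C, and had 0.0412 and 0.0341 in the cdc33-ts4-2 samples at 25°C and 0.502 and 0.286 at 37°C. The mutant rose (log2 change 3.03, limma adjusted p = 0.0106) where CDC33 cells fell (-3.58, adjusted p = 0.0137). The difference of 6.61 (SE 0.58, adjusted p = 0.0176) depends on the pseudocount through the 2 zeros and ranged from 3.98 to 10.1 over the alternatives, with adjusted p between 6.09e-05 and 0.195. It was not past the threshold without either CDC33 replicate at 37°C, without either mutant replicate at 25°C, or after centring.

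Among the members with the smallest p-values that did not pass, several had low leader densities everywhere except in the mutant at 37°C. KAR2, the chaperone BiP of the endoplasmic reticulum, had 0.0389 and 0.0577 in CDC33 cells at 25°C, 0.0201 and 0.0321 at 37°C, 0.00953 and 0.0327 in the mutant at 25°C and 0.148 and 0.136 at 37°C. It rose in the mutant (6.72-fold, limma adjusted p = 0.0241), and the difference between strains was 3.09 (SE 0.65, adjusted p = 0.277). DRE2, needed for cytosolic iron-sulfur protein assembly, had 0.0307 and 0.0240, 0.0779 and 0.0394, 0 and 0.0142, and 0.345 and 0.327 in that order, with a difference of 3.65 (SE 0.72, adjusted p = 0.248). RTT10 was at 0 in 5 libraries, at 0.0290 in CDC33 cells at 25°C replicate 1, and at 0.315 and 0.405 in the mutant at 37°C. IDP1, a mitochondrial isocitrate dehydrogenase, had the reverse arrangement: 0.0848 and 0.0819 in CDC33 cells at 25°C and 0 in the other 6, so that its difference of 3.22 came from CDC33 cells alone. RTT10 and IDP1 each passed the density filter only through the group where they were high.

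On the other side, TOM1, a ubiquitin ligase, had leader densities of 0.745 and 0.982 in CDC33 cells at 25°C and 3.36 and 3.18 at 37°C, against 1.37 and 1.86 in the cdc33-ts4-2 samples at 25°C and 1.86 and 1.92 at 37°C. It rose 3.79-fold in CDC33 cells (limma adjusted p = 0.032) and was 1.17-fold higher in the mutant, a difference of -1.68 (SE 0.46, adjusted p = 0.424). CDC27, a subunit of the anaphase-promoting complex, had 0.0968 and 0.105, 0.494 and 0.791, 1.04 and 0.816, and 0.856 and 0.784 in the same order. PKC1, the kinase of the cell wall integrity pathway, had 0.0898 and 0.131, 0.583 and 0.553, 0.311 and 0.284, and 0.289 and 0.503. Both rose in CDC33 cells (adjusted p = 0.0212 and 0.032) from a level below that of the mutant at 25°C. TRM3, a tRNA ribose methyltransferase, was listed at 0 in CDC33 cells at 25°C and at 0.359 and 0.378 at 37°C, and rose from 0.263 and 0.368 to 1.9002 and 1.58 in the mutant. HTS1, the histidyl-tRNA synthetase, had 0.0272 to 0.161 in 6 libraries and was at 0 in both mutant samples at 37°C. STE23, a protease of a-factor maturation, was at 0 in 5 of the 8 libraries.

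No functional group held a called difference in leader density between strains, and differences between groups were not tested. Counts of members raised within a strain are to be read against 209 of 1076 members in the mutant and 129 of 1076 in CDC33 cells. The aminoacyl-tRNA synthetases had the largest median difference among the groups with at least 10 members tested, 1.11 over 16 members with 12 above 0, against 0.04 over all members (0.74 against -0.33 after centring). In the mutant 4 rose and 1, HTS1, fell, and in CDC33 cells 2 rose. THS1, the threonyl-tRNA synthetase, had leader densities of 0.00904 and 0.0147, 0.00645 and 0.00617, 0.00755 and 0.00981, and 0.0437 and 0.0476 in the same order of groups, and rose 5.26-fold in the mutant (limma adjusted p = 0.0241). THS1 passed the density filter only through the mutant at 37°C. VAS1, the valyl-tRNA synthetase, had 0.0318 and 0.0711, 0.0470 and 0.0315, 0.0173 and 0.0364, and 0.141 and 0.0816. Both were highest in the 2 mutant samples at 37°C. Genes of sterol and fatty acid synthesis had a median difference of 0.41 over 19 members (0.04 after centring), with 8 raised in the mutant and 2 in CDC33 cells. Among them ELO1, a fatty acid elongase, had 0.0107 and 0.0216, 0.0277 and 0.0150, 0.0155 and 0.0187, and 0.0917 and 0.115, and ERG20, the farnesyl pyrophosphate synthase, rose 4.08-fold in the mutant (adjusted p = 0.0343) and was 1.08-fold higher in CDC33 cells.

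Chaperone genes had a median difference of 0.35 over 25 members (-0.02 after centring, where all members stood at -0.33), with 6 raised in the mutant. In CDC33 cells 1 rose and 1 fell. HSP60, the mitochondrial chaperonin, had leader densities of 0.0436 and 0.0459, 0.0381 and 0.0403, 0.0218 and 0.0218, and 0.190 and 0.0619, and its mutant samples at 37°C differed from each other but both lay above the other 6. Cytosolic ribosomal protein genes had a median of 0.38 over 34 members (0.01 after centring), with 5 raised and 1 lowered in the mutant. Of 44 genes of amino acid synthesis, among which are many Gcn4 targets, 12 rose in the mutant and 9 in CDC33 cells (209 and 129 of 1076 over all members), and the median difference was 0.01. LYS2, of lysine synthesis, had leader densities of 0.0820 and 0.259, 0.333 and 0.198, 0 and 0.110, and 0.741 and 0.846, while its leader was listed at 0 in all RNA-seq samples. ARG7, of arginine synthesis, had 0.0122 and 0, 0.0129 and 0.0306, 0.0820 and 0.0899, and 0 and 0.0240. The remaining groups (eIF4F and its partners, the eIF2 pathway, other initiation factors, general stress, glycolysis, proteasome, cell wall, cell cycle, mRNA decay and oxidative phosphorylation) had median differences between -0.26 and 0.33.

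Among the initiation factors, GCD11, the gamma subunit of eIF2 that carries GTP in the ternary complex, had leader densities of 0.00892 and 0.0296, 0.00686 and 0.0345, 0.00498 and 0.00421, and 0.0826 and 0.0615, and rose in the mutant (log2 change 2.48, limma adjusted p = 0.0344). GCD7, the beta subunit of the exchange factor eIF2B, had 0.101 and 0.116, 0.0759 and 0.137, 0.0686 and 0.0443, and 0.171 and 0.210, a 3.38-fold rise in the mutant (adjusted p = 0.0389). SBP1, an RNA-binding protein that binds eIF4G, rose 3.05-fold in the mutant (adjusted p = 0.0415) and was 1.45-fold higher in CDC33 cells. TIF6 (eIF6, which keeps the 60S subunit from joining) rose in both strains, 4.77-fold and 4.45-fold. The differences between strains were 2.48, 1.69, 0.97 and 0.32, and none passed.

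In RNA-seq 13 of 1076 members gained and none lost leader density in the mutant relative to CDC33 cells (1.21% called), with a median difference of 0.26, and after centring 5 gained and 1 lost. When the RNA-seq difference was subtracted from that of the footprints, 7 members were higher and 11 lower (1.67% called), with a median of -0.20 and 457 members above 0. Differences in footprints and in RNA-seq were hardly related across the 1076 members (Spearman's rho -0.07, over genes, which are not independent replicates).

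The density of footprints in 3′ UTRs was highest in the mutant at 37°C. The median density over the 1205 members with complete 3′ UTR densities was 0.00136 and 0.000143 in CDC33 cells at 25°C, and 0.00178 and 0.00372 at 37°C. In the cdc33-ts4-2 samples it was 0.00101 and 0.00104 at 25°C, and 0.0102 and 0.0170 at 37°C. The mutant samples at 37°C lay above the other 6 but far below the density in the coding sequence, and in RNA-seq the median was 0.61 to 1.0. The rise was 13.3-fold in the mutant and 3.67-fold in CDC33 cells. The difference of 1.85 in log2 was within the spread between replicates (1.87, exact p = 0.278). In CDC33 replicate 2 at 25°C, the lowest sample, 48.2% of the 1120 members tested with limma were at 0. Without CDC33 replicate 1 at 25°C the difference was -0.54.

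With limma on log2(density + 0.001), for members with a mean density of at least 0.001, 333 of 1120 members rose and 9 fell in cdc33-ts4-2 cells (30.6% called), and 19 rose and 2 fell in CDC33 cells (1.87% called). The median changes were 2.33 and 0.43. For the difference between the strains 23 members were higher in the mutant and 5 lower (2.5% called), the median difference was 1.75 and 854 members were above 0, with a median standard error of 1.64 per gene. After centring, which moved every difference by -1.905, the counts were 0 higher and 2 lower for the difference and 4 raised and 12 lowered in the mutant. Without either mutant replicate at 25°C no difference was called (229 and 246 at an unadjusted p under 0.05 in limma), and without other single libraries up to 99 were. Of the 23 members higher in the mutant, 13 were at 0 in all 6 other libraries, as were 47 members in all, and the 5 lower members were at 0 in both mutant samples at 37°C. Members at 0 in all 6 other libraries passed the mean density filter only through the mutant at 37°C. A group at 0 in both replicates also adds no spread between replicates to the test, which lowers the standard error. Replicates of these densities correlated with a Spearman's rho of 0.22 to 0.52 over members, against 0.82 to 0.92 for leaders.

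The named members that gained 3′ UTR density in the mutant include enzymes of metabolism, protein folding and translation. ALT1, the mitochondrial alanine transaminase, had 3′ UTR densities of 0.00419 and 0.0110 in CDC33 cells at 25°C, was listed at 0 in CDC33 cells at 37°C and in the mutant at 25°C, and had 0.0414 and 0.0573 in the mutant at 37°C (difference 8.61, SE 0.91, limma adjusted p = 0.0195). PFK2, the beta subunit of phosphofructokinase, was measured in all libraries: 0.00155 and 0.00187, 0.00152 and 0.00226, 0.00216 and 0.00115, and 0.0669 and 0.0615. The other 6 samples lay within 0.00115 to 0.00226, and the mutant rose 38.7-fold against 1.10-fold in CDC33 cells (difference 4.56, SE 0.79, adjusted p = 0.0497). ILS1, the isoleucyl-tRNA synthetase, had 0.00216 and 0.00357 in CDC33 cells at 25°C, 0 in both at 37°C, 0 and 0.00362 in the mutant at 25°C and 0.103 and 0.116 at 37°C (difference 7.61, SE 1.19, adjusted p = 0.0414). ERO1, which drives disulfide formation in the endoplasmic reticulum, had 0.00669 and 0.0201, 0.0110 and 0.0271, 0 and 0, and 0.316 and 0.128 (difference 7.14, SE 1.2002, adjusted p = 0.0497). PUF3, an RNA-binding protein of mRNAs for mitochondrial proteins, had 0.00658 and 0.00732, 0 and 0, 0.00350 and 0, and 0.0630 and 0.141 (difference 8.48, SE 1.25, adjusted p = 0.0373). In all 5 genes both mutant samples at 37°C were above the other 6, which follows from choosing genes by a large difference. Over all 1120 members both were above the mutant samples at 25°C in 649 (57.9%) and above the CDC33 samples at 37°C in 591 (52.8%).

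Some genes measured in all libraries missed the threshold by little. GRS1, whose leader is described above, had 3′ UTR densities of 0.00811 and 0.00291, 0.00269 and 0.00541, 0.00180 and 0.00302, and 0.0970 and 0.122, a 45.4-fold rise in the mutant (difference 5.33, SE 0.98, limma adjusted p = 0.0585). SSC1, the mitochondrial Hsp70, rose 47.0-fold in the mutant to 0.0851 and 0.128, and was 2.27-fold higher in CDC33 cells (adjusted p of the difference 0.106). CDC60, the leucyl-tRNA synthetase, rose 18.2-fold in the mutant, to 0.0779 and 0.0672, and was 1.37-fold higher in CDC33 cells (adjusted p of the difference 0.088). The genes URB1 (ribosome biogenesis, 0.251 and 0.175), DIS3 (catalytic subunit of the exosome, 0.407 and 0.132), BUD7 (exomer cargo adaptor, 0.414 and 0.0958) and YME2 (mitochondrial inner membrane protein, 0.0960 and 0.410) passed (adjusted p = 0.0195, 0.0222, 0.0373 and 0.0373) with footprints in the 3′ UTR only in the mutant at 37°C, and were listed at 0 in the other 6 libraries. Such values may rest on few reads, since depth is unknown.

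All 5 members that went the other way were listed at 0 in both mutant samples at 37°C. DCP2, the catalytic subunit of the decapping enzyme, was listed at 0 in CDC33 cells at 25°C, at 0.0134 and 0.0113 at 37°C, at 0.0194 and 0.0167 in the mutant at 25°C and at 0 in both mutant samples at 37°C (difference -7.99, SE 0.75, limma adjusted p = 0.0195). MAE1, the mitochondrial malic enzyme, had 0 and 0, 0.00869 and 0.0204, 0.00776 and 0.00574, and 0 and 0, and ADO1, the adenosine kinase, 0.00170 and 0, 0.00943 and 0.0114, 0.00979 and 0.00879, and 0 and 0. PNS1 and VBA4 had footprints only in CDC33 cells at 37°C, 0.0175 and 0.0273, and 0.0203 and 0.0217. VID27, which did not pass, had them only in the mutant at 25°C (0.0159 and 0.0288).

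**Figure D5:**
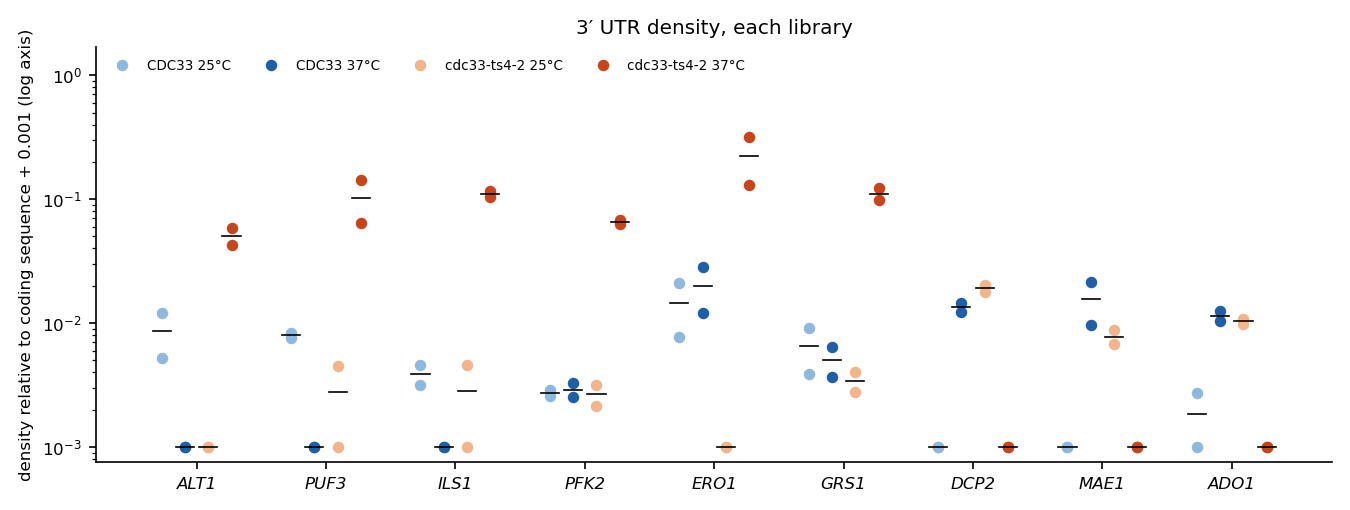
3′ UTR density relative to the coding sequence, with 0.001 added (log axis), of 9 named genes, 1 point per ribosome profiling library. ALT1, PUF3, ILS1, PFK2, ERO1 and GRS1 have their highest values in the 2 cdc33-ts4-2 libraries at 37°C, whereas DCP2, MAE1 and ADO1 were at 0 there.

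By function, the median difference in 3′ UTR density was above that of all members (1.75) for the uORF genes (2.95 over 9), oxidative phosphorylation (2.89 over 15), cell wall (2.67 over 23), the eIF2 pathway (2.62 over 8) and mRNA decay (2.43 over 16, of which 1 was called higher and 1, DCP2, lower). It was below for cytosolic ribosomal proteins (0.57 over 68), chaperones (0.49 over 27) and other initiation factors (-0.10 over 7), and the remaining groups lay between 0.86 and 1.89. After centring, where all members stood at -0.15, these medians were 1.04, 0.98, 0.76, 0.71, 0.52, -1.33, -1.41 and -2.004. The direction of the ribosomal protein and chaperone groups thus turned, as did that of all members and of all the remaining groups (-1.05 to -0.02). Amino acid synthesis held 2 called members, and chaperones, glycolysis and the aminoacyl-tRNA synthetases 1 each. In the mutant alone 12 of 68 ribosomal protein genes and 9 of 23 cell wall genes rose, against 333 of 1120 members. The differences in leaders and in 3′ UTRs were not related across the 961 members with both (Spearman's rho -0.03), although both share the coding sequence as denominator.

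Introns were sparsely covered, and the footprints in them rose in the mutant at 37°C, mostly in ribosomal protein genes, which hold many of the introns of yeast. The median over the 90 members with complete intron densities was 0.00113 and 0.000779 in CDC33 cells at 25°C, and 0.00152 and 0.00208 at 37°C. In the cdc33-ts4-2 samples it was 0.000549 and 0.000732 at 25°C, and 0.00364 and 0.00402 at 37°C. The rise was 5.98-fold in the mutant and 1.88-fold in CDC33 cells, a difference of 1.67 in log2 (exact p = 0.056, the smallest the design allows), or 0.68 when the mean over members replaced the median. RNA-seq medians were 0.0116 to 0.0251. In limma 29 of 70 members rose and 1 fell in the mutant (42.9% called). None was called in CDC33 cells (0% called, 11 at an unadjusted p under 0.05), and none for the difference between strains (0% called, 16 at an unadjusted p under 0.05, median difference 0.84, 54 members above 0). Of the 34 ribosomal protein genes tested 21 rose in the mutant and 29 had a difference above 0, with a median of 0.85. After centring, which moved every difference by -1.06, 1 member rose and 1 fell in the mutant, and the median difference was -0.22.

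RPL42B, a protein of the large ribosomal subunit, had intron densities of 0.00209 and 0.00253, 0.00331 and 0.00239, 0.00135 and 0.00128, and 0.0142 and 0.0105 in the same order of groups. It rose 9.44-fold in the mutant (limma adjusted p = 0.00691) and was 1.23-fold higher in CDC33 cells, a difference of 2.31 (SE 0.47, adjusted p = 0.0959). RPL19B had 0.00180 and 0.00140, 0.00153 and 0.00193, 0.000302 and 0.000687, and 0.00571 and 0.00404, and RPL2A 0.00487 and 0.00375, 0.00427 and 0.0110, 0.000446 and 0.00156, and 0.0213 and 0.0144. In RPL42B, RPL19B and RPL2A the mutant was lowest at 25°C and highest at 37°C. RPL18B behaved alike, at 0 and 0.000682 in the mutant at 25°C and 0.0116 and 0.0106 at 37°C. YPR063C had 0.00183 and 0 in CDC33 cells at 25°C, 0.00597 and 0.0105 at 37°C, 0 in the mutant at 25°C and 0.0445 and 0.0467 at 37°C. PMI40, which makes mannose 6-phosphate, was the 1 intron called as falling in the mutant, from 0.00291 and 0.00510 to 0, and was at 0 in CDC33 cells. It passed the density filter only through the mutant at 25°C, and its groups at 0 add no spread between replicates. The log2 change of PMI40 in the mutant ranged from -5.31 to -0.48 over the alternatives. HNT1, STO1 and ARP9 had differences of -4.14, -4.24 and -3.19, with 3 or more of the 8 libraries at 0 in each, and none passed.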

How the data were processed

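Members and gene lists were chosen with earlier results of these data known. The deposited density tables hold ratios: per the study's methods, footprint or read density in a leader, 3′ UTR or intron divided by that in the coding sequence. The deposited coverage signal is the authors' average over genes with each region of at least 100 nt and at least 128 coding reads, in 100 bins, with footprints placed at their midpoint. The authors aligned reads (21 to 34 nt for footprints) to the R64 genome with STAR 2.7.10b, counted with featureCounts 2.01 and bedtools 2.30.0, took the longest published UTR or a default of 120 nt (leader) or 200 nt (3′ UTR), and ran DESeq2 1.32.0. Submitters' processing notes also name Salmon 1.9.0. Tables of the authors' own fold changes, p-values and translational efficiency were used only for the mean count that chose the members.

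Densities listed in all samples of both assays were tested with limma 3.58.1 in R 4.3.3 as log2(density + 0.01) for leaders and log2(density + 0.001) for 3′ UTRs and introns, after leaving out genes with a mean density under 0.01 or 0.001. All 4 groups entered 1 fit without a replicate term, p-values were adjusted by Benjamini-Hochberg over all genes tested, and the strain by temperature contrast was the change in cdc33-ts4-2 minus that in CDC33. Medians and coverage windows were compared by exact permutation of strain labels within each temperature. Its null hypothesis is no difference between the strains at either temperature. The outlier removal the authors applied before plotting was not repeated. Depth of the regions is unknown, so no counting interval is given. Named genes were the uORF genes, the called members of largest difference (12 per direction for leaders, 6 for 3′ UTRs, 4 for introns, filled with smallest p where fewer passed) and up to 3 members of each list. Fits were tested on simulated data. Pseudocounts, filters, centring, a replicate block, another variance model, a spread shared with RNA-seq and leaving out each library were the alternatives. Value columns of no sample numbered 0.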

Additional observations from a re-analysis of the deposited data

Results flagged for a closer look

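The change from 25°C to 37°C differed between the strains, by the limma test of the difference itself, for the leader density of UTP21 (adjusted p = 0.0176) and for the 3′ UTR densities of the named members below. Higher in the mutant were URB1 and ALT1 (adjusted p = 0.0195 each), DIS3 (0.0222), PUF3, YME2 and BUD7 (0.0373 each), ILS1 (0.0414), and ERO1 and PFK2 (0.0497 each). Lower in the mutant were DCP2 (0.0195), MAE1 (0.0235), ADO1 (0.0414), and VBA4 and PNS1 (0.0497 each). Among these, URB1, DIS3, YME2 and BUD7 were at 0 in every library but those of the mutant at 37°C. VBA4 and PNS1 were at 0 in every library but those of CDC33 cells at 37°C. Such genes passed the density filter through a single group, and both the size and the p-value of their difference depend on the pseudocount. Their groups at 0 in both replicates add no spread between replicates to the test. The same holds for the groups at 0 in both replicates of DCP2 and MAE1. Both replicates of the mutant at 37°C were at 0 for all 5 lower members, and none of the 3′ UTR calls was made without either mutant replicate at 25°C. After centring each library on its median, UTP21 was not called and, of all 3′ UTRs, 0 were called higher and 2 lower (143 at an unadjusted p under 0.05 in limma). UTP21 was also not called without either CDC33 replicate at 37°C or either mutant replicate at 25°C.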

How the results depend on the processing

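The difference between strains kept its direction in all alternatives for the coding and 3′ UTR coverage windows and for the leader and intron median densities per library. The median over members of the difference per gene turned for leaders (-0.33) and for introns and 3′ UTRs after centring. The difference turned without single libraries in leader bins 1 to 50 (up to 0.03) and 91 to 100 (down to -0.04) and in the 3′ UTR median. Counts of called genes moved widely. Depth is unknown. Alternatives for the changes within a strain, for introns in the mutant, for RNA-seq and for GCN4 within a strain were chosen after seeing the data. Causes of the shifts were not tested.

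For leaders, the difference between strains was called for 5 members at a pseudocount of 0.001, 2 at 0.05, 2 with no filter, 33 with a spread shared with RNA-seq and 0 after centring (165 at an unadjusted p under 0.05 in limma). In the mutant the calls were 118 and 356 at the pseudocounts, 472 with the shared spread and 46 after centring. In CDC33 cells they were 41 and 234 at the pseudocounts, 259 at a mean density 5 times higher, 220 with trended and robust variance, 405 with the shared spread and 16 after centring. For 3′ UTRs the difference was called for 214 at a pseudocount of 0.01, 82 with no filter, 429 with the shared spread and 2 after centring (median -0.15). In the mutant it was 131 at a pseudocount of 0.0001, 689 with the shared spread and 16 after centring. In CDC33 cells it was 41 and 5 at pseudocounts of 0.0001 and 0.01, 40 with no filter, 12 with trended variance, 143 with the shared spread and 0 after centring (82 unadjusted). For introns the difference was called for 1 at each other pseudocount and 18 with the shared spread, its median was -0.22 after centring, and in the mutant 12 were called at a mean density 5 times higher and 2 after centring. The difference in median intron density was 0.68 as a mean over members. RNA-seq gave 6 calls after centring, and footprints against RNA-seq 11 at a pseudocount of 0.05.

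Leaving out each library in turn gave 0 to 5 leader differences (median -0.17 to 0.29), 0 to 342 calls in the mutant and 1 to 279 in CDC33 cells. For 3′ UTRs it gave 0 to 99 (median 1.40 to 2.04), 136 to 312 and 0 to 52, for introns 0 to 4 and, in the mutant, 19 to 35, for RNA-seq 6 to 15 and for footprints against RNA-seq 3 to 47. The difference in median 3′ UTR density ranged from -0.54 to 2.71. Single genes whose difference changed sign were not called. URA1 ranged from -0.083 (without CDC33 replicate 2 at 25°C) to 0.842, YAP1 from -0.816 to 0.059 (without CDC33 replicate 1 at 25°C), TIF6 from -0.201 (without CDC33 replicate 1 at 37°C) to 0.839, with -0.049 after centring, and LEU4 from -0.471 to 0.451 without single libraries, with 0.113 at a pseudocount of 0.05.

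Samples share only a replicate number: deviations of same-numbered samples correlated by -0.07 to 0.05. With a replicate block the calls were 1 leader difference, 163 in the mutant and 12 in CDC33 cells, 0 3′ UTR differences (245 unadjusted), 277 and 0 (88 unadjusted), and 0 intron differences.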

Other observations

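HRP1, which encodes a nuclear RNA-binding protein of mRNA 3′ end formation, had a leader density in RNA-seq of 30.8 to 35.3 in the cdc33-ts4-2 samples at 37°C against 1.54 to 3.61 in the other 9 samples, so its leader held far more RNA per base than its coding sequence in that group. The gene was chosen after its values were seen.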
